A study of Mus musculus with 36 samples.

Results

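The genes described here are 10 immediate early genes of the mouse: Fos, Fosb, Jun, Junb, Egr1, Egr2, Nr4a1, Ier2, Ier3 and Atf3. They were chosen by name, through the NCBI gene numbers of the deposited tables, with earlier results of these data known. All 10 have a row in both tables, among 19001 genes in the paired-end table and 17697 in the single-end table. Immediate early genes are transcribed within minutes of a growth signal or a stress by factors already present in the cell, and their messages are short-lived. Most of the 10 encode transcription factors that pass the signal on to later genes; Ier3 encodes a stress-inducible regulator of cell death that is not known to bind DNA.

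The series measured total RNA of liver, spleen and thymus by RNA sequencing, in 36 libraries that fall into 12 groups of 3. In the 18 paired-end libraries, each tissue of mice with wild-type p53 (wt) was sampled after X-rays, at 2 Gy and 3 h per the treatment field, and without treatment. In the 18 single-end libraries, each tissue of mice whose p53 lacks its C-terminus (d24) stands beside the wt tissue, and every one of these libraries is titled as irradiated. The treatment field goes against the titles: it says control for 9 of them, which are d24 liver, d24 thymus and wt spleen, and gives 2 Gy and 3 h for wt liver, wt thymus and d24 spleen. The cell type field likewise says WT for all 9 libraries titled d24, so the genotype rests on the titles alone. Groups were taken from the titles. As titles and field disagree within every tissue, the d24 difference cannot be told apart from a difference in irradiation. Age, strain and sex are not in the labels, and nothing in them says whether replicates are separate animals, so p-values measure the spread between these libraries only.

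Values are normalised reads per gene, called signal here: reads scaled by a composition-adjusted library size. The paired-end libraries held 44348579 to 81322683 reads and the single-end libraries 20481048 to 38042710, and 1 read was worth at most 0.0828 units of signal. Each tissue carried its own markers: the summed signal of 7 hepatocyte genes was at least 281603 in every liver library and at most 1424 in any spleen or thymus library. Trp53 itself had 33.6 to 140 units in the paired-end tissues and 34.6 to 236 in the single-end tissues, and whole-gene reads do not check a deletion of its last part. In the paired-end table the summed signal of 9 p53 target genes was 468 to 551 in X-ray livers, against 141 to 150 in untreated livers, 1408 to 1511 in X-ray spleens against 191 to 205, and 1098 to 1203 in X-ray thymuses against 206 to 223. In the single-end table, which was normalised separately, the sum was 348 to 652 in d24 livers against 180 to 309 in wt livers, 1083 to 1494 in d24 spleens against 241 to 280, and 456 to 643 in d24 thymuses against 248 to 290. In each tissue the single-end wt sums were thus below those of every X-ray library of the paired-end table, as were those of d24 thymuses. This includes wt liver and wt thymus, which title and field both call irradiated. Whether the single-end wt libraries were irradiated was not tested. Xist, made by female cells, was above 100 units in 2 of 3 X-ray libraries and 1 of 3 untreated libraries of each tissue, and in the single-end table in 2 of 3 d24 and 1 of 3 wt livers, 3 of 3 d24 and 1 of 3 wt spleens, and 3 of 3 d24 and 2 of 3 wt thymuses.

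Fos and Fosb encode leucine zipper proteins best known as partners of Jun family proteins, and the Fos and Jun pair forms AP-1, the factor that binds TGANTCA sites. Atf3 is a leucine zipper protein of the ATF and CREB group, widely used as a marker of cell stress and a known p53 target gene. Egr1 and Egr2 are zinc finger factors that bind GC-rich sites, Nr4a1 is a ligand-independent nuclear receptor best known in thymocytes as a gene switched on by the T cell receptor, and Ier2 is a small nuclear protein. Such genes are typically started through serum response factor at CArG boxes and through CREB or ATF proteins at TGACG sequences just upstream of the gene.

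Since the 10 genes were selected as a group that responds quickly, the 250 bases before each RefSeq start were scanned for such sequences. Of the 10, 8 were found in the RefSeq promoter table of GRCm38.p6; Egr1 and Ier2 were not. TGACG, on either strand, was in 6 of the 8 (Fos, Fosb, Junb, Egr2, Nr4a1 and Atf3), and in 17.8% of 32851 windows of the same length, where a gene with several starts has several windows. Egr2 alone of the 8 has more than 1 start, and TGACG was in 3 of its 5 windows and the CArG box in 4, so its count as a gene is not on the same footing as the share of windows. TGACNTCA, which overlaps TGACG where N is G, was in Jun only of the 8, and in 7.49% of all windows. The CArG box was in Egr2 (1.47% of all windows), the EGR sequence GCGNGGGCG in Fosb and Nr4a1 (4.70%), and TATAAA in Fos (12.4%). TGANTCA was in none of the 8, and in 6.75% of all windows, and the motif of a single p53 decamer was in none of the 8, and in 7.13%. These are matches of letters in the window, not sites known to be bound. The windows of 4 genes that the results below turn on are shown 5′ to 3′ on the strand of the gene, with each TGACG or TGACNTCA match in capitals, also where it lies on the other strand. They are chr12:85473640-85473889 on the plus strand for Fos, chr4:95052223-95052472 on the minus strand for Jun, chr1:191183334-191183583 on the minus strand for Atf3 and chr15:101266596-101266845 on the plus strand for Nr4a1.
Fos: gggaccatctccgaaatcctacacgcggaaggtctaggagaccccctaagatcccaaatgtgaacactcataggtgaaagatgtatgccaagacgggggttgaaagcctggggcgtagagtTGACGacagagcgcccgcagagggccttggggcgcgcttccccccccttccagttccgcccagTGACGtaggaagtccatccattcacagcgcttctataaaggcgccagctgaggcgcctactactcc
Jun: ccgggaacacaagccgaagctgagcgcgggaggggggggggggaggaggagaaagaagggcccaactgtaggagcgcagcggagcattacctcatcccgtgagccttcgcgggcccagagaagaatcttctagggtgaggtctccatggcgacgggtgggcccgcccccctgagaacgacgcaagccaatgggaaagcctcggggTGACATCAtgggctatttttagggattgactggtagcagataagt
Atf3: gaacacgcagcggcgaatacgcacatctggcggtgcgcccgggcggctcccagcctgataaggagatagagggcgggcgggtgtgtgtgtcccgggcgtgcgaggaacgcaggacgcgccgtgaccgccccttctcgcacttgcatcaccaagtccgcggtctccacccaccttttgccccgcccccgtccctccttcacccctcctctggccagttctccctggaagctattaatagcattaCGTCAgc
Nr4a1: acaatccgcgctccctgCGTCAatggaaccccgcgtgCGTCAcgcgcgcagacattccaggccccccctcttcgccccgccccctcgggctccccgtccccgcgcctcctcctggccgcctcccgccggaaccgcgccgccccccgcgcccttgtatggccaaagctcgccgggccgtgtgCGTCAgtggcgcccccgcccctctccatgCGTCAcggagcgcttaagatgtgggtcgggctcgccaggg
Fos carries 2 TGACG matches, the nearer one ending 61 bases before the start, and the single match of Atf3 ends 2 bases before it. Nr4a1 carries 4 matches, all on the other strand.

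Without treatment, the genes with the highest means were not the same in the 3 wt tissues. Set per kilobase of exon, so that genes can be compared within a tissue, Egr1 (21.9 ± 8.45 units per kb, SD, n = 3) and Ier2 (14.1 ± 1.69) stood first in untreated liver, Ier2 (7.55 ± 1.35) and Junb (4.87 ± 1.59) in untreated spleen, and Nr4a1 (11.4 ± 1.98) and Egr1 (9.70 ± 0.853) in untreated thymus. In each tissue the ranges of these leading pairs overlapped, and in spleen the range of Junb also overlapped that of Ier3, the next gene. Fosb was last in spleen and thymus, at 0.111 ± 0.0251 and 0.133 ± 0.0373 units per kb, and apart from the gene above it; in liver Egr2 was last at 0.0947 ± 0.0340, with a range overlapping that of Fosb.

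Differences between untreated tissues were tested with limma on log2(signal + 0.5). P-values were adjusted by Benjamini-Hochberg across the 15141 genes that passed the filter, and a gene is called here when its adjusted p is below 0.05. Of the 9 genes tested (Fosb was too low), 7 were called between spleen and liver, against 85.9% of all genes, 5 between thymus and liver, against 86.4%, and 5 between spleen and thymus, against 72.6%. None of these shares was above that of all genes. Egr2 and Nr4a1 were called higher in both lymphoid organs than in liver, and Egr1, Jun and Ier2 lower in both. Egr2 had 1.87, 2.21 and 2.47 units in untreated spleens and 8.74, 9.83 and 11.7 in untreated thymuses, against 0.391, 0.181 and 0.333 in untreated livers. Nr4a1 had 6.42, 8.88 and 11.6 units in spleens and 33.8, 24.5 and 33.6 in thymuses, against 1.76, 1.24 and 1.48 in livers. No library of one tissue overlapped another for either gene, and the log2 differences of spleen minus thymus were -1.98 ± 0.15 (SE) for Egr2 (adjusted p = 2.09e-07) and -1.74 ± 0.20 for Nr4a1 (adjusted p = 7.41e-06). Egr1 was lower in spleen than in liver, with 6.99, 10.4 and 11.7 units against 62.1, 95.2 and 138, a log2 difference of -3.23 ± 0.25 (adjusted p = 8.33e-08), and lower than in thymus, at 39.5, 43.8 and 47.1 units (-2.14 ± 0.25, adjusted p = 7.72e-06). Ier3 was higher in spleen than in either other tissue, with log2 differences of 1.37 ± 0.14 against liver (adjusted p = 1.84e-06) and 1.32 ± 0.14 against thymus (adjusted p = 4.70e-06). Fos and Junb passed in none of the 3 contrasts. Jun's lower value in spleen than in liver (-1.001 ± 0.35, adjusted p = 0.0184) was lost in 3 of the 9 fits that left out 1 library. It was -0.52 (adjusted p = 0.0666) without untreated liver replicate 2, the highest at 26.2 units, -0.82 (adjusted p = 0.0758) without spleen replicate 1 and -0.90 (adjusted p = 0.0608) without spleen replicate 2.

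After X-rays, the group rose in spleen and thymus and did not pass the test in liver. The same limma test was run within each tissue, 3 X-ray against 3 untreated libraries, over 13250 genes in liver, 13389 in spleen and 13810 in thymus that reached 1 unit in 3 or more libraries. In spleen, 8 of 9 tested genes rose and none fell, against 19.5% of all genes called higher (9 of 9 by edgeR and by DESeq2); in thymus, 8 of 9 rose and none fell, against 9.77%. In spleen every irradiated library was above every untreated one for all 10 genes, against 24.5% of all genes tested, and in thymus for 8 of the 10, against 18.6%. In liver none of 8 tested passed, against 0.242% of all genes. At an unadjusted p below 0.05 there was 1 of 8, against 21.9% of all genes. None was called by edgeR and 1 by DESeq2, which called 631 of all genes. The median log2 difference of the tested genes was 1.26 in spleen, 1.14 in thymus and -0.29 in liver, beside -0.03, 0.01 and -0.05 over all genes. As these are whole organs, a changed share of cells of a type and a changed amount of RNA per cell cannot be told apart, for a rise or a fall.

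**Figure D1:**
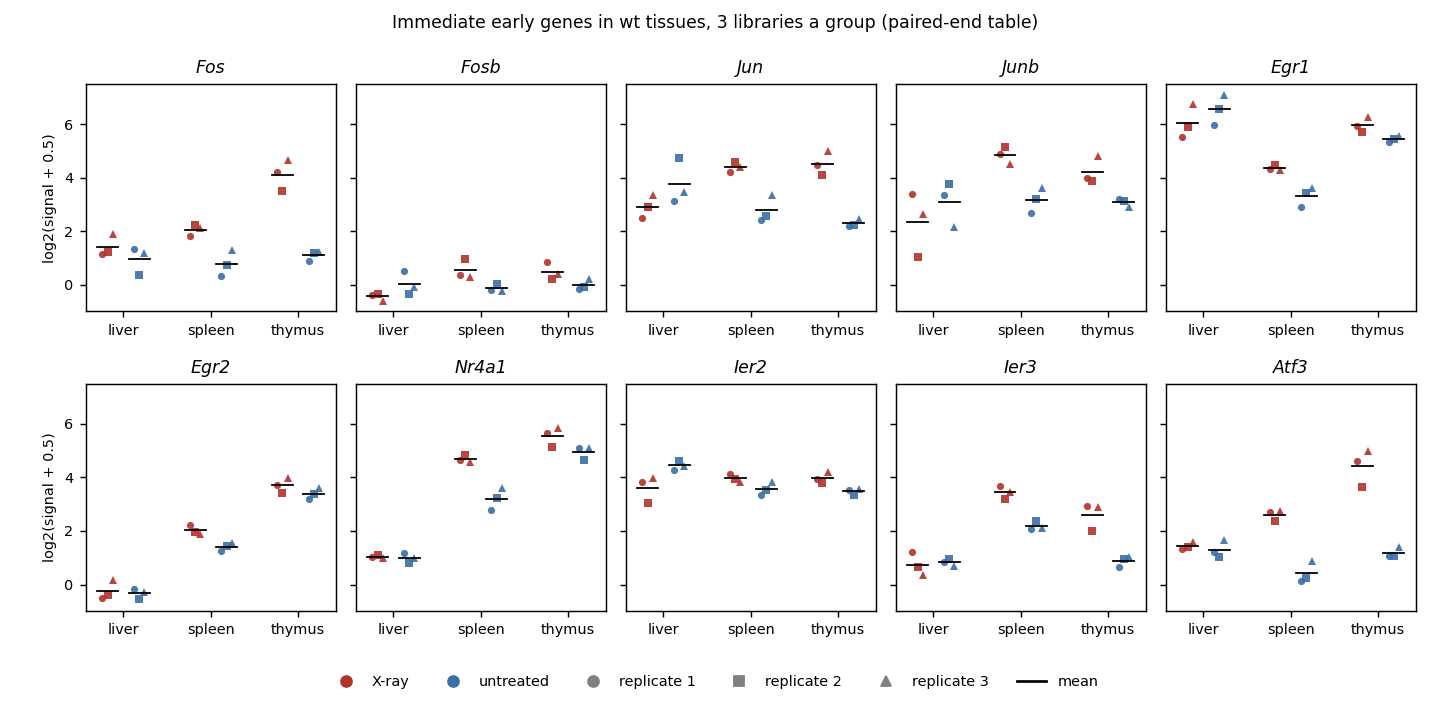
Each panel shows 1 gene, with the tissue on the x axis and log2(signal + 0.5) on the y axis; points are the 3 libraries of a group, red for X-ray and blue for untreated, symbols give the replicate number and bars the mean. Red points lie above blue ones for every gene in spleen and for 8 of the 10 in thymus, while in liver the groups overlap for all but Fosb and Ier2, which were lower after X-rays. Of all genes tested in liver, 13.9% lay apart and lower.

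Of the AP-1 genes, Fos had the largest X-ray difference in thymus. Fos had 17.9, 10.8 and 25.0 units in X-ray thymuses, against 1.38, 1.78 and 1.84 in untreated thymuses. The lowest irradiated thymus was well above the highest untreated one, and the log2 difference was 3.01 ± 0.25 (SE, adjusted p = 7.24e-05). In spleen Fos had 3.01, 4.26 and 3.83 units after X-rays, against 0.758, 1.18 and 1.99 without, a log2 difference of 1.26 ± 0.24 (adjusted p = 0.00411). In liver it had 1.71, 1.85 and 3.23 units after X-rays, against 2.02, 0.786 and 1.79 without, so the groups overlapped (0.46 ± 0.31, adjusted p = 0.371). Among untreated tissues Fos had passed in no contrast.

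Jun, which can pair with itself as well as with Fos proteins, rose to similar levels in both lymphoid organs. It had 18.2, 23.9 and 20.6 units in X-ray spleens, against 4.85, 5.51 and 9.66 in untreated spleens (log2 difference 1.63 ± 0.22, adjusted p = 0.00101). It had 21.7, 16.9 and 31.8 units in X-ray thymuses, against 4.05, 4.27 and 4.97 in untreated thymuses (2.24 ± 0.20, adjusted p = 1.05e-04). Neither organ showed overlap. X-ray livers had 5.22, 7.01 and 9.69 units, against 8.24, 26.2 and 10.7 in untreated livers (-0.86 ± 0.39, adjusted p = 0.237).

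Junb, a Jun relative that often restrains Jun in growth control, had 29.4, 34.7 and 22.4 units in X-ray spleens, against 5.97, 8.71 and 11.7 in untreated spleens (1.68 ± 0.23, adjusted p = 0.00103). In X-ray thymuses it had 15.4, 14.4 and 27.5 units, against 8.81, 8.28 and 7.04 (1.14 ± 0.21, adjusted p = 0.00634). The liver groups overlapped, with 9.95, 1.54 and 5.71 units after X-rays against 9.74, 13.1 and 4.00 without. Fosb, the partner of Jun proteins best known in neurons, had a low signal: it had 34 to 87 reads in X-ray spleens against 19 to 34 in untreated spleens, 51 to 109 in X-ray thymuses against 38 to 49, and 5 to 11 in X-ray livers against 10 to 29. It failed the filter on low values in all 3 tissues; with no filter, its log2 difference was 0.68 in spleen (adjusted p = 0.0315), 0.50 in thymus (adjusted p = 0.116) and -0.48 in liver (adjusted p = 0.282).

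Atf3 showed the largest log2 difference of the 9 tested genes in both lymphoid organs. It had 24.2, 11.97 and 30.9 units in X-ray thymuses, against 1.59, 1.58 and 2.12 in untreated thymuses, a log2 difference of 3.24 ± 0.29 (adjusted p = 1.04e-04). X-ray spleens had 6.03, 4.68 and 6.22 units, against 0.610, 0.685 and 1.35 in untreated spleens, a log2 difference of 2.18 ± 0.21 (adjusted p = 1.90e-04). All irradiated libraries of these organs were above all untreated ones. In liver Atf3 had 2.00, 2.11 and 2.51 units after X-rays, against 1.82, 1.54 and 2.69 without (0.13 ± 0.21, adjusted p = 0.728), although 6 of the 9 p53 target genes rose there.

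**Figure D2:**
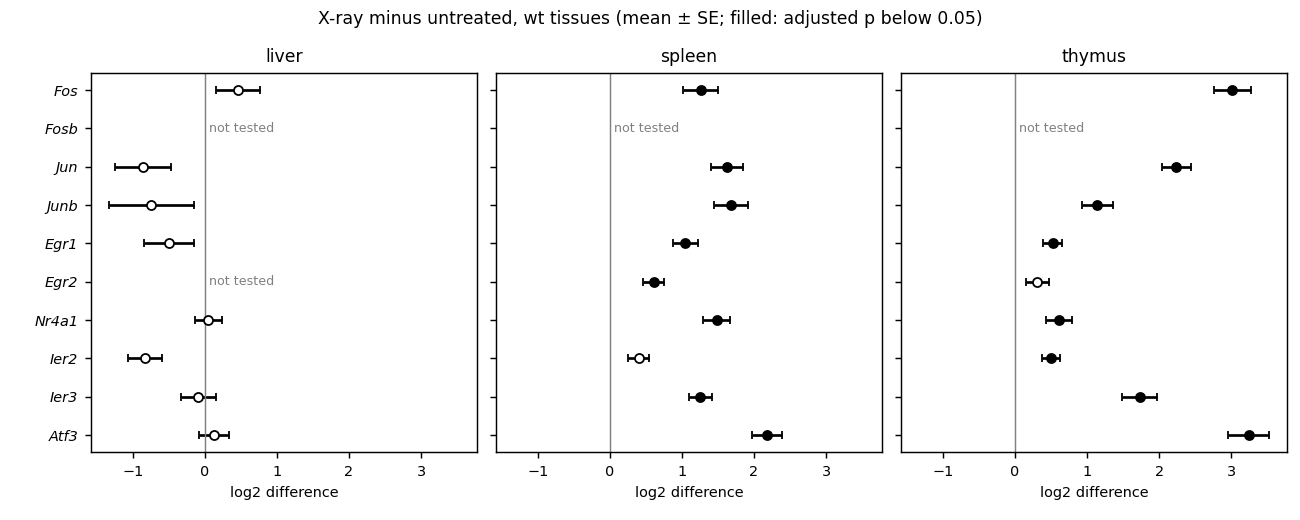
Points give the log2 difference of X-ray minus untreated for each gene and bars its standard error, with 1 panel a tissue and filled points for an adjusted p below 0.05. Filled points run from 0.61 to 2.18 in spleen and from 0.49 to 3.24 in thymus, and none is filled in liver.

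The zinc finger genes Egr1 and Egr2 had smaller differences. Egr1 had 19.4, 21.8 and 19.3 units in X-ray spleens, against 6.99, 10.4 and 11.7 in untreated spleens (1.05 ± 0.17, adjusted p = 0.00223). In thymus, where it started higher, it had 61.2, 51.6 and 77.2 units after X-rays, against 39.5, 43.8 and 47.1 without (0.52 ± 0.14, adjusted p = 0.0247). In liver, its highest tissue, X-ray libraries had 45.1, 59.1 and 108 units, against 62.1, 95.2 and 138 (-0.50 ± 0.35, adjusted p = 0.393). Egr2, which in T cells is known to limit activation, had 4.14, 3.40 and 3.23 units in X-ray spleens, against 1.87, 2.21 and 2.47 in untreated spleens (0.61 ± 0.15, adjusted p = 0.0116). In thymus the groups of Egr2 overlapped, with 12.7, 10.3 and 15.2 units after X-rays against 8.74, 9.83 and 11.7 without (0.31 ± 0.16, adjusted p = 0.182). In liver it had 7 to 19 reads after X-rays and 6 to 12 without, and was not tested.

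Nr4a1 had 24.5, 27.8 and 23.5 units in X-ray spleens, against 6.42, 8.88 and 11.6 in untreated spleens (1.48 ± 0.19, adjusted p = 6.97e-04). X-ray thymuses had 50.7, 34.6 and 56.8 units, against 33.8, 24.5 and 33.6 in untreated thymuses (0.60 ± 0.18, adjusted p = 0.0422). Irradiated spleens and untreated thymuses overlapped for this gene. In liver Nr4a1 had 1.53, 1.66 and 1.47 units after X-rays, against 1.76, 1.24 and 1.48 without.

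Ier3 had 12.4, 8.69 and 10.5 units in X-ray spleens, against 3.70, 4.73 and 3.87 in untreated spleens (1.26 ± 0.15, adjusted p = 6.07e-04), and 7.14, 3.47 and 6.92 units in X-ray thymuses, against 1.06, 1.43 and 1.55 in untreated thymuses (1.73 ± 0.25, adjusted p = 0.00179). Neither organ overlapped. Ier2 had 17.1, 14.7 and 13.815 units in X-ray spleens, against 9.77, 10.9 and 13.775 in untreated spleens (0.40 ± 0.15, limma adjusted p = 0.0555; called by edgeR, adjusted p = 0.0380, and by DESeq2, adjusted p = 0.0295), and 14.9, 13.4 and 17.8 units in X-ray thymuses, against 11.03, 9.78 and 11.3 in untreated thymuses (0.49 ± 0.12, adjusted p = 0.0206). In liver Ier2 alone of the 8 tested genes lay apart, lower after X-rays, a share near the 13.9% of all genes tested. Fosb, not tested there, also lay apart and lower, by a thin margin. Ier2 had 13.9, 7.72 and 15.2 units in X-ray livers against 19.1, 24.2 and 21.2 in untreated livers, and did not pass (-0.83 ± 0.24, adjusted p = 0.191; DESeq2 adjusted p = 0.0432).

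Within X-ray thymuses the genes moved by library: replicate 2 was the lowest of the 3 for 10 of the 10 genes and replicate 3 the highest for 8. In untreated spleens replicate 1 was lowest for 9 of the 10 and replicate 3 highest for 8. The smaller thymus differences depended on single libraries. Without X-ray replicate 3, or without untreated replicate 2, 5 genes were called in thymus rather than 8, with Egr1, Nr4a1 and Ier2 lost each time, and Nr4a1 passed in 1 of the 6 such fits only. In spleen 8 or 9 genes were called when any other library than untreated replicate 1 was left out, and 7 without that one, where Egr2 had an adjusted p of 0.0504.

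Whether the X-ray difference itself varied with tissue was tested with an interaction F test in limma over all 18 paired-end libraries. It passed for 8 of the 9 genes tested, against 30.5% of all genes; Egr2 did not pass (F = 1.95, adjusted p = 0.271). F was largest for Atf3 (33.0, adjusted p = 1.46e-04) and Jun (23.0, adjusted p = 6.18e-04). For spleen minus liver, 7 genes passed, against 26.4% of all genes: all of the 9 but Fos (0.80, adjusted p = 0.192) and Egr2. For thymus minus liver, Fos (2.55), Jun (3.10), Ier2 (1.33), Ier3 (1.82) and Atf3 (3.12) passed, against 15.5% of all genes. Spleen and thymus differed from each other for Fos only, a share of the 9 near the 9.54% of all genes. The log2 difference of X-ray differences was -1.76 for Fos (adjusted p = 0.0186). The nearest others were Nr4a1 at 0.87 (adjusted p = 0.0635) and Atf3 at -1.06 (adjusted p = 0.1003).

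Other cell markers moved in the same tissues. Of all genes, 19.5% were called higher in spleen and 9.77% in thymus. Of the 7 macrophage markers, 7 rose in X-ray spleens and 5 in X-ray thymuses, with summed signals of 938 to 1404 in X-ray spleens against 547 to 703 in untreated spleens, and 484 to 718 in X-ray thymuses against 356 to 418. Of the neutrophil markers, 6 of 7 rose in spleen and 5 of 5 tested in thymus, with sums of 439 to 983 in X-ray spleens against 342 to 444, and 42.3 to 102 in X-ray thymuses against 24.5 to 43.4. Hepatocyte markers rose in X-ray spleens for 5 of 5 tested, with sums of 39.5 to 476 against 22.8 to 44.7, and in thymus none of 7 was called, with sums of 53.3 to 1424 in X-ray against 25.0 to 173 in untreated libraries. X-ray thymus replicate 3, the highest library for 8 of the 10 genes, also had the highest hepatocyte sum. B cell markers rose in X-ray spleens for 3 of 6, with sums of 1350 to 2022 against 1023 to 1231 in untreated spleens. None of these markers was at 0 in any of these libraries, and their part in the differences of the 10 genes was not tested. Of 8 heat shock genes, Hspa1a, Hspa1b and Hspb1 rose in both organs, in spleen by 1.81 ± 0.41, 1.96 ± 0.39 and 1.70 ± 0.34 and in thymus by 0.72 ± 0.20, 0.73 ± 0.22 and 0.69 ± 0.18 on the log2 scale. Hsp90aa1 fell in both, by 0.79 in spleen and by 0.63 in thymus on the log2 scale, Dnajb1 fell by 0.50 in thymus, and the part of these genes was not tested either.

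Of the AP-1 relatives, 4 of 6 tested rose in X-ray spleens, against 19.5% of all genes, and 2 of 5 in X-ray thymuses, against 9.77%, with none lower. The lists were not compared between the organs. Jdp2, a leucine zipper protein that represses AP-1 sites, had a log2 difference of 1.63 ± 0.16 in spleen (adjusted p = 2.23e-04) and 1.03 ± 0.20 in thymus (adjusted p = 0.00678), and Fosl2, a further Fos protein, 1.39 ± 0.16 and 0.97 ± 0.22 (adjusted p = 4.01e-04 and 0.0135). Jund, the Jun protein that most resting cells keep, rose by 1.03 ± 0.15 in spleen (adjusted p = 0.00133). Of the EGR and NR4A relatives, Egr3 (1.02 ± 0.17), Nr4a3 (0.75 ± 0.19) and the EGR repressor gene Nab2 (0.50 ± 0.17) rose in spleen among 5 tested, against 19.5% of all genes. In thymus none of 5 rose. Nab1, which encodes a further EGR repressor, fell there (-0.34 ± 0.08, adjusted p = 0.0205), against 11.6% of all genes called lower.

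Of 10 other immediate early transcription factor genes, 6 rose and 1 fell in spleen, against 19.5% of all genes called higher and 20.4% called lower. Over all genes these shares were 9.77% and 11.6% in thymus. Maff, a small leucine zipper factor, rose by 1.90 ± 0.21, Cebpd by 1.31 ± 0.16 and Cebpb by 1.34 ± 0.19, and Klf2, a factor of resting lymphocytes, fell (-0.38 ± 0.12, adjusted p = 0.0309). In thymus 3 of 9 tested rose, Klf4 (0.93 ± 0.17), Cebpb (0.88 ± 0.18) and Nfil3 (0.65 ± 0.20), and 2 fell: Myc, a driver of cell growth, had 19.2 units on average in X-ray thymuses against 43.5 in untreated thymuses (-1.17 ± 0.11, adjusted p = 1.28e-04), and Klf10 fell by 0.49 on the log2 scale.

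The feedback inhibitors, whose products switch off the kinases or degrade the messages behind this response, rose for 9 of 12 in spleen, against 19.5% of all genes. In thymus 7 of 12 rose, against 9.77% of all genes. Errfi1, which inhibits the EGF receptor, rose by 1.97 ± 0.24 in spleen and 0.89 ± 0.13 in thymus, and Zfp36, which encodes an RNA-binding protein that hastens the decay of short-lived messages, by 0.91 ± 0.12 and 0.64 ± 0.15. Dusp1, a phosphatase of stress-activated kinases, had 22.1 units on average in X-ray thymuses against 8.34 in untreated thymuses (1.34 ± 0.16, adjusted p = 6.65e-04). Dusp2 rose in spleen (0.86 ± 0.14, adjusted p = 0.00212) and fell in thymus (-0.32 ± 0.09, adjusted p = 0.0295).

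Of 14 other immediate early genes, 11 of 13 tested rose in spleen, against 19.5% of all genes. In thymus 9 of 13 rose, against 9.77% of all genes, and 1, Phlda1, fell (-0.67 ± 0.17), against 11.6%. Plk2, a kinase gene known as a p53 target, rose most in both, by 2.82 ± 0.18 in spleen and 3.68 ± 0.11 in thymus, followed in thymus by Ccn1, which encodes a secreted matrix protein (3.01 ± 0.36). In liver the only one of 13 called was Btg2, against 0.204% of all genes called higher. Btg2, an antiproliferative gene and known p53 target, had 61.5 units on average in X-ray livers against 29.3 in untreated livers (1.04 ± 0.15, adjusted p = 0.0423). Of the upstream kinases and factors, 4 of 14 rose and 4 fell in spleen, against 19.5% higher and 20.4% lower of all genes, so these shares are near those of all genes. Those that rose included the serum response factor gene Srf (0.61 ± 0.11) and its partner gene Elk1 (0.77 ± 0.12), and those that fell the stress kinase gene Mapk9 (-1.01 ± 0.10). In thymus 2 of 14 rose, Mrtfa (0.47 ± 0.09) and Srf (0.64 ± 0.20), and 1 fell, against 9.77% higher and 11.6% lower of all genes.

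**Figure D3:**
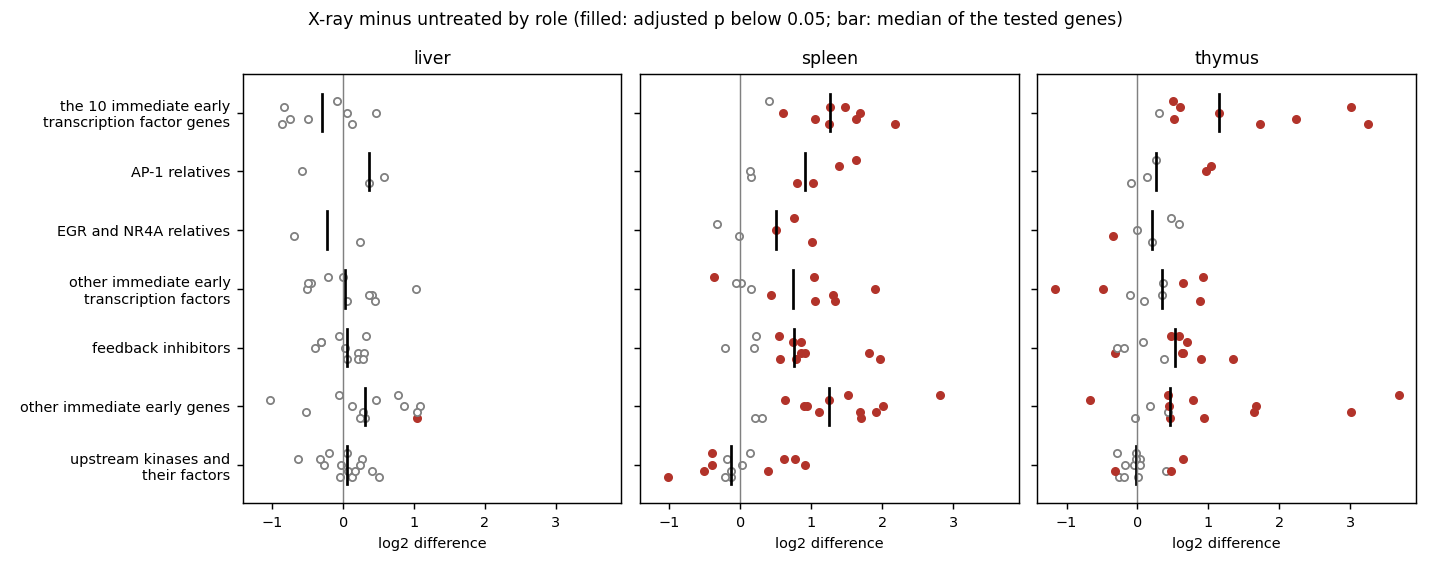
Each point is 1 tested gene of a list, placed by its log2 difference of X-ray minus untreated, filled where the adjusted p is below 0.05; black bars mark the median of the tested genes of a list. In spleen the medians of the 10 genes (1.26) and of the other immediate early genes (1.25) lie farthest right, and that of the upstream kinases and factors is -0.14.

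The 5 genes whose X-ray differences over the 3 tissues lay nearest to the medians of the 8 genes tested in all 3 (-0.29 in liver, 1.37 in spleen, 1.44 in thymus) were Mgmt, Klhl26, Hp, Sytl1 and Ass1, out of 9918 candidates. Their root mean square distances ran from 0.130 for Mgmt, a DNA repair gene (-0.36, 1.27 and 1.63), to 0.169 for Ass1, a urea cycle gene (-0.07, 1.53 and 1.52). The likeness is over 3 differences only.

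In the single-end libraries, d24 tissues were set against wt tissues of the same title. Of the 10 genes, Jun alone was called, higher in d24 liver, where 1 of 8 tested passed, against 0.277% of all genes called higher. DESeq2 called 3 of the 8 there, among 531 of all genes, and edgeR none. None of 9 passed in d24 spleen, against 2.28% of all genes in either direction, and none by edgeR or DESeq2. At an unadjusted p below 0.05 there were 2 of 9, against 13.3% of all genes. None of 10 passed in d24 thymus, against 0.00724%, with none at an unadjusted p below 0.05 and none by either other tool. The median log2 difference of the tested genes was 1.49 in liver, -0.14 in spleen and -0.30 in thymus, beside -0.08, -0.05 and -0.02 over all genes.

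**Figure D4:**
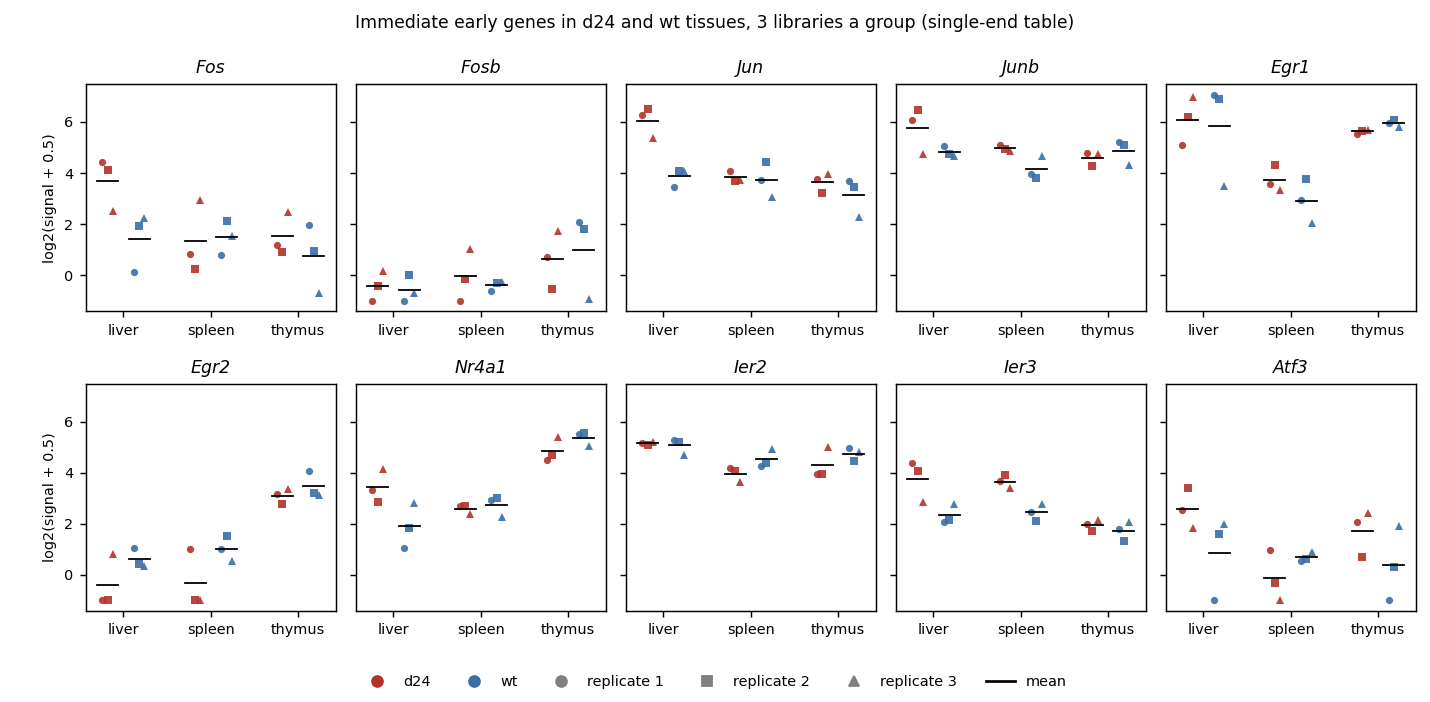
Each panel shows 1 gene, with the tissue on the x axis and log2(signal + 0.5) on the y axis; points are the 3 libraries of a group, red for d24 and blue for wt, symbols give the replicate number and bars the mean. Red points lie above blue ones without overlap in liver for Fos, Jun, Nr4a1 and Ier3, by a wide margin for Jun alone, with replicate 3 the lowest of the red points for Fos, Jun and Ier3.

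In liver, Jun had 75.9, 91.3 and 40.7 units in d24 livers, against 10.4, 16.6 and 16.2 in wt livers. The lowest d24 liver was above the highest wt liver, and the log2 difference was 2.18 ± 0.36 (limma, adjusted p = 0.0312). The call was lost in 5 of the 6 fits that left out 1 library, with adjusted p up to 0.168, and kept without d24 replicate 3; with edgeR it was 0.0502. Fos had 21.1, 16.7 and 5.27 units in d24 livers, against 0.591, 3.31 and 4.28 in wt livers, without overlap (2.25 ± 0.68, adjusted p = 0.192). Ier3 had 20.1, 16.3 and 6.81 units in d24 livers, against 3.74, 3.89 and 6.33 in wt livers (1.44 ± 0.48, adjusted p = 0.237), and Nr4a1 9.60, 6.73 and 17.2 units against 1.58, 3.06 and 6.57 (1.54 ± 0.55, adjusted p = 0.272). For these 4 genes the groups did not overlap, against 7.56% of all genes apart and higher.

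The other genes overlapped between d24 and wt livers. Junb had 67.4, 88.5 and 26.1 units in d24 livers, against 33.3, 26.3 and 24.6 in wt livers (0.94 ± 0.42, adjusted p = 0.371), and Atf3 5.36, 10.1 and 3.02 units against 0.00, 2.57 and 3.50 (1.72 ± 0.81, adjusted p = 0.394). Egr1 ran across the groups, with 34.0, 73.3 and 124 units in d24 livers and 134, 118 and 10.9 in wt livers, and Ier2 was level at 35.3, 33.5 and 36.2 units in d24 livers against 38.7, 36.7 and 25.6. Egr2 had 0, 0 and 18 reads in d24 livers and 24, 10 and 13 in wt livers, and Fosb at most 9 reads in either group; neither was tested. Thus d24 livers 1 and 2 were the high ones for Fos, Jun, Junb and Ier3, and liver 3 was the high one for Egr1 and Nr4a1. Without d24 liver 3, 2 genes were called, Jun (2.52) and Junb (1.46, adjusted p = 0.0387).

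Other fast-response genes followed livers 1 and 2. Btg2 had 450, 589 and 183 units in d24 livers, against 78.9, 69.5 and 89.3 in wt livers (2.20 ± 0.38, adjusted p = 0.0417), Gadd45b 41.5, 53.6 and 5.34 units against 0.591, 3.06 and 7.30 (adjusted p = 0.196), and Dusp1 118, 97.6 and 23.2 units against 13.6, 15.0 and 27.1 (adjusted p = 0.191). Btg2 was the only gene called there in the lists of relatives, feedback inhibitors, other immediate early genes and upstream factors. The p53 target gene Cdkn1a went with these libraries too, at 360, 364 and 108 units in d24 livers against 17.7, 34.4 and 147 in wt livers, and was not called. Of 7 neutrophil markers 5 were called lower in d24 livers, against 0.248% of all genes, with sums of 15.3 to 78.0 against 390 to 877 in wt livers. Ltf and Retnlg were at 0 in d24 liver 1. B cell markers were called lower for 1 of 4 tested, with sums of 3.77 to 4.92 in d24 livers against 22.4 to 60.2 in wt livers, and 1 to 3 of the 6 were at 0 in each d24 liver. The part of these cells, and of the treatment field that calls d24 livers control, in the liver values was not tested.

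In spleen, d24 libraries were higher without overlap for 2 genes, against 8.74% of all genes tested. These were Ier3, at 12.1, 14.4 and 10.1 units against 5.07, 3.77 and 6.40 in wt spleens (1.20 ± 0.40, adjusted p = 0.186), and Junb, at 33.8, 29.9 and 28.7 units against 15.0, 13.7 and 24.7 (0.82 ± 0.33, adjusted p = 0.286). Ier2 alone lay the other way without overlap, a share near the 10.6% of all genes tested that lay apart and lower. It had 17.6, 16.1 and 12.03 units in d24 spleens against 18.6, 20.1 and 30.1 in wt spleens (-0.56 ± 0.34, adjusted p = 0.539). Jun had 16.4, 12.5 and 12.9 units in d24 spleens, against 12.7, 21.1 and 7.82 in wt spleens (0.10 ± 0.40), and Atf3 1.48, 0.311 and 0.00 units against 0.957, 1.04 and 1.38. These values stand beside a p53 target gene that differed widely: Cdkn1a had 319, 416 and 384 units in d24 spleens, against 5.46, 7.36 and 9.37 in wt spleens (5.59 ± 0.28, adjusted p = 1.63e-06). In the separately normalised paired-end table Cdkn1a had 3.74 to 6.32 units in untreated spleens and 150 to 162 in X-ray spleens. Genotype and irradiation cannot be told apart in this d24 difference. Neutrophil markers were called lower in d24 spleens for 5 of 7, against 1.24% of all genes, with sums of 118 to 933 against 2531 to 7835 in wt spleens. B cell markers were called lower for 1 of 6, with sums of 55.7 to 306 in d24 spleens against 453 to 592 in wt spleens, and the part of either was not tested.

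In thymus, Egr1 was the only gene without overlap, a share near the 7.55% of all genes tested that lay apart and lower. It was lower in d24 libraries at 45.7, 49.9 and 51.7 units against 61.9, 67.6 and 55.4 in wt thymuses (-0.32 ± 0.17, adjusted p = 0.585). Nr4a1 had 22.3, 25.1 and 41.6 units in d24 thymuses, against 44.6, 46.1 and 32.9 in wt thymuses (-0.50 ± 0.27, adjusted p = 0.577). Fos had 1.76, 1.40 and 5.13 units in d24 thymuses, against 3.45, 1.42 and 0.118, and Atf3 3.69, 1.12 and 4.82 units against 0.00, 0.741 and 3.22 (1.32 ± 0.81, adjusted p = 0.630). Fosb, tested in this comparison alone, had 1.13, 0.195 and 2.82 units against 3.70, 3.06 and 0.0295 (-0.36 ± 0.91, adjusted p = 0.920). Replicate 3 was the highest d24 thymus for 9 of the 10 genes, and its summed hepatocyte signal was also the highest, at 1303 units against 21.7 and 87.8 in the other d24 thymuses and 2.22 to 8.59 in wt thymuses. Macrophage sums were 398 to 959 in d24 thymuses against 262 to 287 in wt thymuses, stromal sums 287 to 1139 against 142 to 235, and B cell sums 19.3 to 26.8 against 43.8 to 64.5, with no marker of these lists called. The part of these cells was not tested. The wt thymuses of the single-end table thus had 0.00 to 3.22 units of Atf3 and 0.118 to 3.45 of Fos, where those of the paired-end table had 11.97 to 30.9 and 10.8 to 25.0 after X-rays and 1.58 to 2.12 and 1.38 to 1.84 without, in separately normalised tables.

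**Figure D5:**
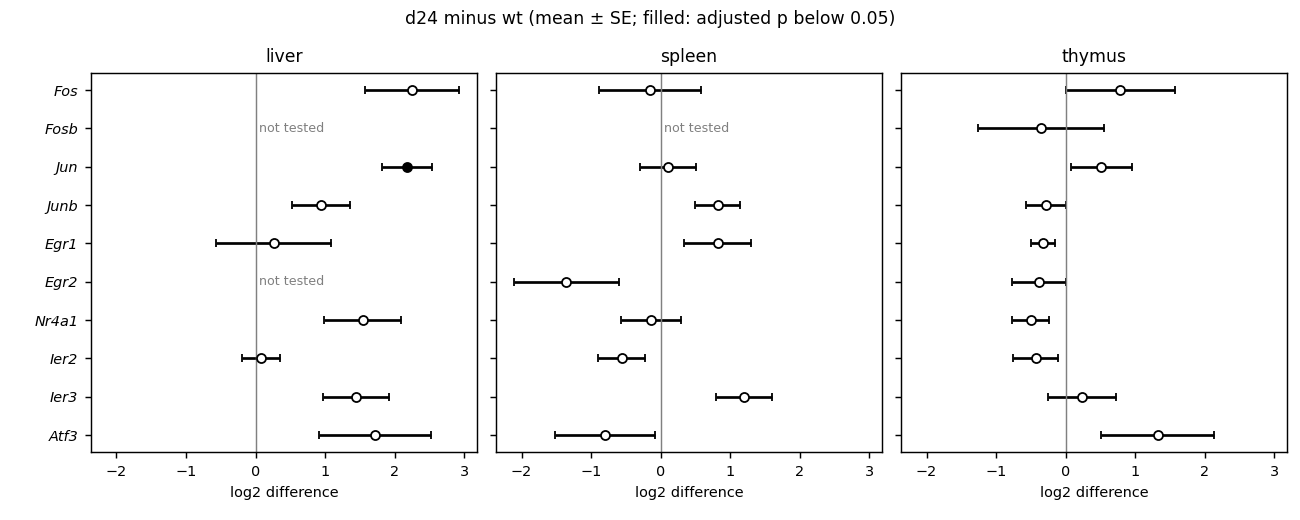
Points give the log2 difference of d24 minus wt for each gene and bars its standard error, with 1 panel a tissue and filled points for an adjusted p below 0.05. Jun in liver, at 2.18, is the only filled point.

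The d24 difference was tested for change with tissue by the same interaction F test over the 18 single-end libraries. None of 10 genes passed with limma, against 0.988% of all genes. At an unadjusted p below 0.05 there were 2, and the share of all genes at that level was not taken. None was called by edgeR and 1, Jun, by DESeq2 (adjusted p = 0.0433), which called 504 of all genes. Jun also came nearest with limma, with an F of 6.79 (adjusted p = 0.183), so whether its d24 difference varies with tissue depends on the tool.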

How the data were processed

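Per the submitters' processing notes, edgeR and mm10 were used. How reads were aligned and counted, and by which strand, is not given in the sources used here. The deposited signal values are gene reads scaled to 1000000 by a library size with a composition factor. All were whole multiples of a column's smallest step, within 0.01 of it, so reads were recovered for alternative count tests. Plain CPM had been assumed; the test planned for normalised values was kept. The tables were normalised separately, each was tested on its own, and 18 columns matching no sample were not used. The filter kept genes reaching 1 unit in 3 or more libraries compared. The main test was limma 3.58.1 (R 4.3.3) on log2(signal + 0.5), with a trended prior and Benjamini-Hochberg adjustment at 0.05. It was checked beforehand on data simulated for the spleen comparisons only, with the same spread setting for every gene, so the check does not cover the liver or thymus comparisons. Alternatives were edgeR 4.0.16 and DESeq2 1.42.0 on the reads. Fold changes on this scale understate those of low genes. A floor of 3 reads covers counting error only. Exon lengths are from GENCODE basic annotation.

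Members and lists were chosen with earlier results of these data known. Named from other lists were up to 3 called genes per direction with the smallest p; 1 gene of these is not reported here. Deviations of same-numbered libraries correlated across genes in every pair only in the X-ray comparison of spleen (0.177 to 0.241), which by the rule of 0.1 pairs them there; the labels name no shared animal, and the replicate block gave the same 8 calls in number.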

Additional observations from a re-analysis of the deposited data

Results flagged for a closer look

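The X-ray difference of 8 of the 9 tested genes differed between liver, spleen and thymus by the interaction F test of limma over all 18 paired-end libraries, against 30.5% of all genes. The adjusted p was 1.46e-04 for Atf3, 6.18e-04 for Jun, 0.00166 for Fos, 0.00274 for Ier3, 0.00375 for Ier2, 0.00503 for Nr4a1, 0.0228 for Egr1 and 0.0246 for Junb. The tissues stood in the order thymus 3.24, spleen 2.18 and liver 0.13 for Atf3, and thymus 3.01, spleen 1.26 and liver 0.46 for Fos (log2 differences), while for Junb and Nr4a1 spleen was first, at 1.68 and 1.48. Between spleen and thymus only Fos passed in the same limma fit (adjusted p = 0.0186). Atf3 (adjusted p = 0.1003), Nr4a1 (0.0635) and Junb (0.687) did not, so their order between these 2 organs is not settled. Leaving out single libraries ended the call of Junb in 3 of 18 fits and that of Egr1 in 2 of 18.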

How the results depend on the processing

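Over the alternatives other than leaving out a library, 928 of 955 values of single genes kept their direction and their side of the threshold. Among member calls, X-ray spleen gave 5 with a mean signal of at least 5, which left 6 genes to test, and that filter gave 4 for untreated spleen against liver and 2 against thymus. X-ray liver gave 1 with DESeq2, and the d24 interaction 1. d24 liver gave 0 with no filter, without trend, with edgeR, with the replicate block and with Xist level as a sex term (chosen after seeing the data), and 3 with DESeq2. Nr4a1 in X-ray thymus missed the threshold with no filter (adjusted p = 0.0697), without trend (0.0745) and with Xist (0.0553), and Egr1 there without trend (0.0512).

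Counts over all genes moved as follows. X-ray liver, 32 in the main fit, gave 631 with DESeq2 and 19 with Xist. d24 liver, 72, gave 44 with a pseudocount of 0.1, 43 with no filter, 46 with a mean of at least 5, 33 with the replicate block, 11 with edgeR and 531 with DESeq2. d24 spleen, 309, gave 159 with no filter, 574 with the block, 145 with edgeR, 597 with DESeq2 and 31 with Xist. d24 thymus, 1, gave 2 with a pseudocount of 2 and with edgeR, 0 with no filter, the block and Xist, and 266 with DESeq2. The d24 interaction, 159, gave 92 with a mean of at least 5, 46 with edgeR and 504 with DESeq2. The causes were not tested. The block changed no other count of calls by over 1.5 times and ended no member's call but Jun's in d24 liver (adjusted p = 0.0761); same-numbered pairs passed 0.1 in 2 of 3 X-ray thymus pairs, 1 of 3 X-ray liver pairs and 0 of 3 in each d24 comparison.

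Values that changed sign were all uncalled: Nr4a1 in X-ray liver with Xist (-0.0124); Egr1 in d24 liver with edgeR (-0.12), DESeq2 (-0.13) and Xist (-0.25); in d24 spleen Fos with edgeR (0.28) and DESeq2 (0.29), and Jun (-0.60) and Egr1 (-0.0183) with Xist; Fosb in d24 thymus with Xist (0.0609); and Junb in untreated thymus against liver with a pseudocount of 0.1 (0.0026) and median-ratio scaling (0.0876).

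Leaving out each library in turn, X-ray liver gave 9 to 2836 genes (the most without X-ray replicate 1) and 0 to 1 members, X-ray spleen 3136 to 7037 genes, X-ray thymus 1576 to 2851 genes and 5 to 8 members, d24 liver 4 to 311 genes and 0 to 2 members, d24 spleen 119 to 241 genes, d24 thymus 0 to 71 genes and the d24 interaction 84 to 253 genes. Signs changed, none past the threshold, for Nr4a1 (-0.0448 to 0.14), Ier3 (-0.33 to 0.10) and Atf3 (-0.0129 to 0.31) in X-ray liver, Egr1 (-0.89 to 0.89) and Ier2 (-0.11 to 0.19) in d24 liver, Fos (-0.95 to 0.39) and Jun (-0.24 to 0.45) in d24 spleen and Fosb (-1.31 to 0.22) in d24 thymus. Between untreated tissues they changed for Fos (-0.46 to 0.0716) and Junb (-0.39 to 0.41) in spleen against liver, Fos (-0.15 to 0.33), Junb (-0.47 to 0.33), Ier3 (-0.0340 to 0.16) and Atf3 (-0.28 to 0.0459) in thymus against liver, and Junb (-0.14 to 0.32) and Ier2 (-0.0470 to 0.19) in spleen against thymus. Reads were fewest for Fosb, at most 136 in any library, and for Egr2 in liver, at most 24.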
